A study of Homo sapiens with 6 samples.

Results

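The genes described here are those of cholesterol synthesis, of the SREBP system that senses sterols, and of cholesterol uptake, transport inside the cell, storage and export. A row of the count table was a member when its Ensembl gene identifier belonged to one of 34 listed symbols. All 34 were among the 79302 genes of the table, and 33 of them were among the 16755 genes that passed a filter on low counts and were tested. The exception was NPC1L1, the intestinal cholesterol uptake protein, with 3, 4 and 3 counts in the control libraries and 7, 2 and 4 counts in the knockdown libraries.

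RNA was sequenced from HCT116, a human colorectal cancer cell line, in 3 libraries with a control shRNA (shCtrl) and 3 libraries with an shRNA against GDPD5 (shGDPD5), a glycerophosphodiester phosphodiesterase. The study describes the cells of both groups as radioresistant HCT116 that were irradiated before collection, whereas the sample labels give only the cell line and the shRNA. Neither source names which of the study's GDPD5 shRNAs was sequenced or says that the libraries of a group were separate cultures. The p-values therefore measure only the spread between these libraries, which may be technical. Of the control libraries, replicate 1 differed most from the others over the tested genes. Its counts gave a chi-square per degree of freedom of 6.27 against shCtrl replicate 2 and 7.31 against shCtrl replicate 3. Those replicates gave 1.65 against each other, and the pairs of shGDPD5 libraries gave 1.68 to 3.39.

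The libraries held between 16715447 and 18510670 counts. GDPD5 was at 8.33, 11.6 and 9.75 CPM (counts scaled to library size) in shCtrl and at 5.44, 5.55 and 5.19 CPM in shGDPD5. The groups did not overlap, and the mean was 54.5% of the control mean (log2 fold change -0.88, SE 0.13, edgeR adjusted p = 0.000116). All 7 epithelial markers examined were detected and tested, and all 7 were called lower in shGDPD5, as were 30.1% of all tested genes. Their summed level ranged from 3533 to 4036 CPM in shCtrl and from 2715 to 2820.3 CPM in shGDPD5. The 5 stromal markers summed to 18.9 to 21.3 CPM against 20.5 to 23.9 CPM, with COL1A2, DCN and LUM at 0. The 5 immune markers summed to 7.16 to 11.6 CPM against 3.10 to 3.21 CPM, with CD3E at 0, and the 4 endothelial markers to at most 1.30 CPM in any library, with CDH5 at 0. Genes of the mitochondrial genome took 10.9% to 11.4% of the counts in shCtrl and 12.2% to 12.9% in shGDPD5. The part of these differences in the results given here was not tested.

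Cells make cholesterol from acetyl-CoA by the mevalonate pathway, whose early enzymes lead to farnesyl diphosphate and whose late enzymes turn it into squalene, lanosterol and finally cholesterol. When sterols in the endoplasmic reticulum are low, SCAP carries the transcription factor SREBP2 to the Golgi apparatus, where it is cut and released to switch on the genes of synthesis and uptake, whereas INSIG proteins hold SCAP back when sterols are plentiful. Cholesterol taken up in lipoproteins leaves the lysosome through NPC2 and NPC1, excess cholesterol is esterified by SOAT1, and oxysterols activate the LXR receptors, which switch on the exporters ABCA1 and ABCG1.

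In shGDPD5, many enzymes of synthesis were higher while the exporters were lower. Of the 33 tested members, 14 were higher (42.4%), 10 were lower (30.3%) and 9 did not pass an adjusted p of 0.05 in edgeR's quasi-likelihood test. Over all tested genes, 59.7% passed this threshold, 29.7% as higher and 30.1% as lower. The share of members called, 72.7%, is therefore to be read against a background in which most genes differed. The median log2 fold change was 0.04 over the tested members and 0.01 over all tested genes, and the median size without sign was 0.32 and 0.36. The libraries of both groups did not overlap for 26 of the 33 tested members (78.8%), against 64.9% of all tested genes.

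The counts by role, here and below, are to be read against the 29.7% of all tested genes called higher and the 30.1% called lower. Of the 19 enzymes of synthesis, 11 were higher, 4 were lower and 4 were not called, with a median log2 fold change of 0.29. Of the 5 genes of export and storage, 0 were higher, 3 were lower and 2 were not called, with a median of -0.52. The share of these 5 genes called, 60.0%, was close to the 59.7% of all tested genes. The 5 genes of the SREBP system had 1 higher and 2 lower and a median of -0.06, and the 4 tested genes of uptake and transport had 2 higher and 1 lower and a median of 0.10. The median of the SREBP system was -0.15 without shCtrl replicate 1 and 0.02 without shCtrl replicate 3. These medians describe the listed genes and were not tested against other genes. The study names 2 fold thresholds. A log2 fold change of at least 1 in size, taken here with an unadjusted p under 0.05, was passed upwards by ACAT2 and EBP (5.38% of all tested genes passed upwards) and downwards by ABCA1 and ABCG1 (6.60% of all tested genes). A fold over 1.5 or under 0.5 at the same p was passed upwards by ACAT2, MVK, FDPS, LSS, EBP and NPC2 (13.6% of all tested genes) and downwards by ABCA1 and ABCG1 (6.60%). In these bulk samples a smaller share of cells with a transcript and less of it in each cell cannot be told apart.

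**Figure D1:**
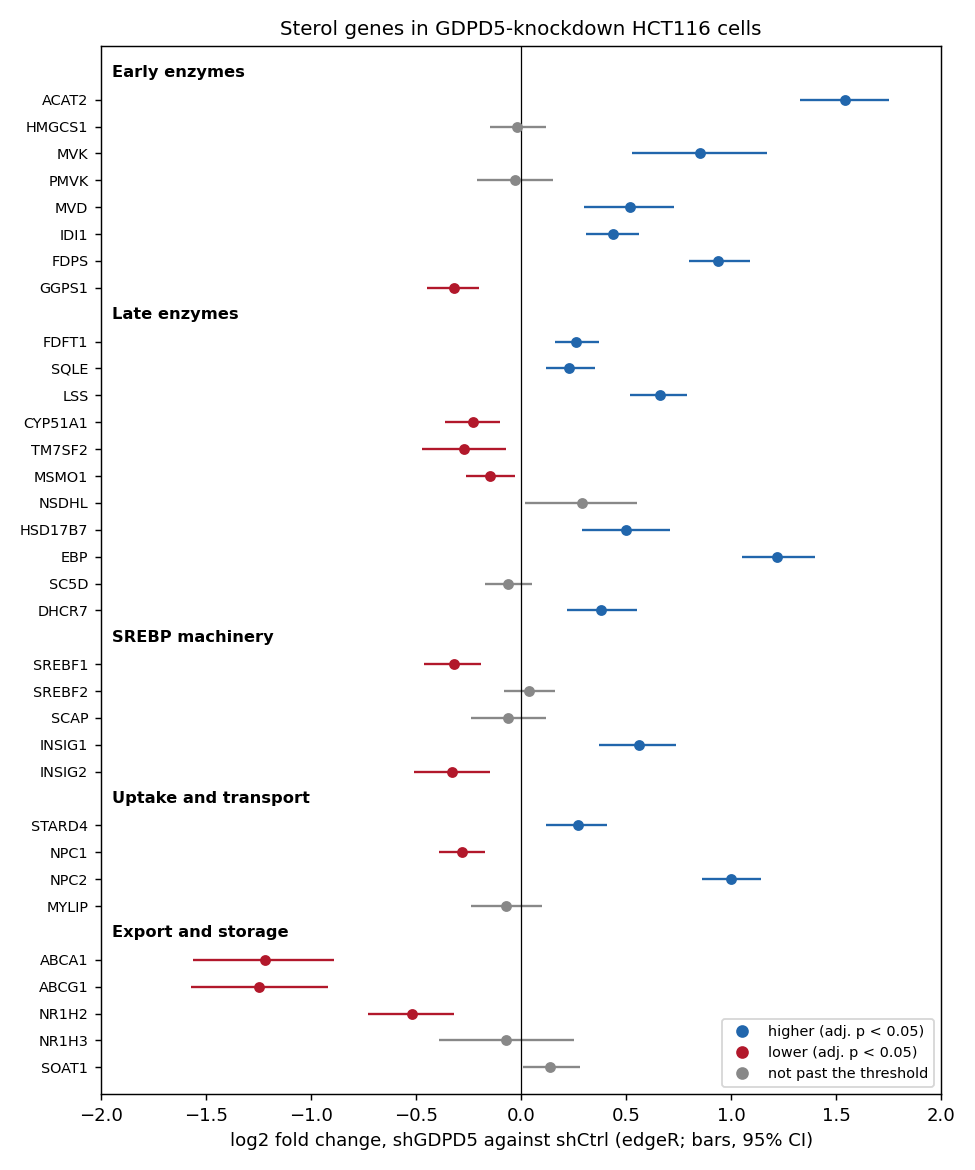
Log2 fold change of shGDPD5 over shCtrl (x axis) for each of the 33 tested members (y axis, by role), with points at the edgeR estimate, bars for the 95% interval, and colour for higher, lower or not called at an adjusted p of 0.05. The estimates run from -1.25 for ABCG1 to 1.54 for ACAT2. None of the 5 genes of export and storage was called higher, against 29.7% of all tested genes.

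The early enzymes, from acetyl-CoA to the isoprenoid diphosphates, had the highest median of the 5 roles, with 5 of 8 higher, 1 lower and 2 not called and a median log2 fold change of 0.48. Their summed level was 253, 257 and 256 CPM in the shCtrl libraries and 331, 337 and 340.0 CPM in the shGDPD5 libraries, without overlap. The 5 that rose do not follow each other without a break in the pathway, since HMGCS1 and PMVK, which act among them, did not pass the test.

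ACAT2 encodes the cytosolic thiolase that joins acetyl-CoA units in the opening step, and lies on chromosome 6 from 159760328 to 159779055 on the plus strand (GENCODE 29, GRCh38). It was measured at 8.62, 7.34 and 7.61 CPM in shCtrl and at 23.2, 24.3 and 21.1 CPM in shGDPD5. The lowest shGDPD5 library was well above the highest shCtrl library, and ACAT2 had the largest rise of all members (log2 fold change 1.54, SE 0.10, edgeR adjusted p = 3.88e-08). On the opposite strand its exons overlap those of SOD2-OT1 over 33.9%, of SOD2 over 26.5% and of TCP1 over 9.2% of their length. The GENCODE 29 identifiers of SOD2 and SOD2-OT1 were not among the tested genes, which does not show that these genes were low. TCP1, a chaperonin gene with a mean of 389 CPM, had a log2 fold change of 0.40. Since the use of strand in counting is not given in the sources used here, reads of the shared stretch cannot be assigned to one of these genes.

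FDPS makes farnesyl diphosphate, the branch point to sterols, dolichol, ubiquinone and prenylated proteins. It was at 49.5, 58.6 and 58.4 CPM in shCtrl and at 104, 109 and 107 CPM in shGDPD5. Every shGDPD5 library held more than every shCtrl library, and the mean was 192% of the control mean (log2 fold change 0.94, SE 0.07, edgeR adjusted p = 1.04e-07). The antisense gene RUSC1-AS1 overlaps 18.6% of its exonic length, at a mean of 7.35 CPM. GGPS1, which extends farnesyl to geranylgeranyl diphosphate and so leads away from sterols, moved the other way, at 56.1, 52.8 and 50.9 CPM in shCtrl and 41.8, 43.1 and 42.8 CPM in shGDPD5. These groups did not overlap either (log2 fold change -0.32, SE 0.06, adjusted p = 0.000371), and 37.3% of the exonic length of GGPS1 is shared with TBCE on the same strand, which had a log2 fold change of -0.11.

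The promoters of FDPS and of LSS, a late enzyme described with its values further on, are shown because both genes rose and both windows hold the CCAAT box bound by NF-Y, a partner of SREBP at many sterol genes. The bases are those of RefSeq on GRCh38.p14, 5′ to 3′ on the strand of the gene, at chr1:155308616-155308747 on the plus strand for FDPS and chr21:46228825-46229024 on the minus strand for LSS, each cut to the bases that lie before the annotated exons. Capitals mark matches to CCAAT, here read on the other strand as ATTGG, and, in FDPS, a match to TCACNCNA, a relaxed form of the sterol response element. The FDPS window holds further matches to CCAAT that are not marked. The one starting at -122 is cut by the end of the stretch, and the one at -51 lies beyond it.
FDPS: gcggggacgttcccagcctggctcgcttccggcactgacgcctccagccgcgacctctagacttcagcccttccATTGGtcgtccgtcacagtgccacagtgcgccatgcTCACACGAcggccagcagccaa
LSS: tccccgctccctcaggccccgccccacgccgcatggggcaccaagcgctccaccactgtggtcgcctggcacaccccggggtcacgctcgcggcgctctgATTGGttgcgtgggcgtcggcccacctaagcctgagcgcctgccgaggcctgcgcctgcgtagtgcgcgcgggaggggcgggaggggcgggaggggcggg

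Windows from 250 bases before to 50 bases after the start were at hand for 30 of the 34 members, and were searched on both strands. A gene with several windows counted once if any of them held a match. CCAAT was found in 22 of these 30 members (73.3%), against 39.7% of the 27305 genes with a window. Of the enzymes of synthesis 14 of 16 held it, and of the other members 8 of 14. TCACNCNA was found in 5 of the 30 (16.7%), namely FDPS, HSD17B7, MSMO1, MVK and SREBF2, against 10.8% of all genes with a window. The stricter core TCACNCCAC, whose matches also match TCACNCNA, was found only in SREBF2 among the 30 members (1.39% of all genes with a window). The E-box CACGTG was found in 5 of the 30 (16.7%), namely ABCA1, INSIG1, LSS, SC5D and SCAP, against 8.77% of all genes with a window. A match describes the letters of a window and is not a measured binding site, and a window without a match says only that these letters are not in it. Matches to CCAAT occurred in genes that rose, such as EBP and NPC2, in genes that fell, such as GGPS1 and MSMO1, and in HMGCS1 and SC5D, which were not called.

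MVK, the mevalonate kinase, was at 4.66, 5.87 and 6.34 CPM in shCtrl and 11.2, 8.38 and 10.9 CPM in shGDPD5. The groups did not overlap, although the shGDPD5 libraries spread over a wider range than those of FDPS (log2 fold change 0.85, SE 0.15, edgeR adjusted p = 0.000307). MVD, which decarboxylates mevalonate diphosphate, rose with a log2 fold change of 0.52, from 21.4 ± 2.66 to 30.6 ± 3.25 CPM (mean ± SD, n = 3; adjusted p = 0.000691). IDI1, the isopentenyl diphosphate isomerase, rose from 35.6 ± 1.23 to 48.2 ± 0.381 CPM (log2 fold change 0.44, adjusted p = 2.39e-05). The antisense gene IDI2-AS1 overlaps 14.8% of the exonic length of IDI1, at a mean of 1.49 CPM. HMGCS1, the synthase that makes HMG-CoA and a classical SREBP2 target, was at 63.0, 56.6 and 55.8 CPM in shCtrl and 54.8, 59.2 and 59.0 CPM in shGDPD5. The groups overlapped, and the 95% interval of its log2 fold change ran from -0.15 to 0.12 (adjusted p = 0.809). PMVK, the kinase after MVK, had a log2 fold change of -0.03 with an interval from -0.21 to 0.15 (adjusted p = 0.778). The ratio of FDPS to HMGCS1 per exonic length was 0.994, 1.31 and 1.32 in shCtrl and 2.40, 2.34 and 2.29 in shGDPD5. Since FDPS rose by more than HMGCS1 varied, this ratio could not overlap and is no result beyond the rise of FDPS. With 3 libraries against 3, an exact two-sided permutation test of such a ratio cannot give a p below 0.1.

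The late enzymes, from squalene to cholesterol, had 6 of 11 higher, 3 lower and 2 not called, with a median log2 fold change of 0.26. The groups did not overlap for any of the 11, including NSDHL and SC5D, which did not pass the test, against 64.9% of all tested genes without overlap. Their summed level was 511, 499 and 505 CPM in shCtrl and 545, 537 and 545 CPM in shGDPD5.

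EBP, the sterol isomerase that moves a double bond within the ring system, had the largest rise of the late enzymes. It lies on chromosome X from 48521158 to 48528716 on the plus strand, and was at 11.1, 11.8 and 12.7 CPM in shCtrl and 26.5, 28.7 and 28.1 CPM in shGDPD5. The lowest shGDPD5 library held more than the highest shCtrl library, and the log2 fold change was 1.22 (SE 0.08, edgeR adjusted p = 5.48e-08). LSS, which closes the ring system to give lanosterol and whose promoter is shown with that of FDPS, was at 18.6, 19.1 and 19.5 CPM in shCtrl and 30.2, 29.9 and 30.0 CPM in shGDPD5. The libraries within each group lay close together (log2 fold change 0.66, SE 0.06, adjusted p = 2.12e-06).

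FDFT1, which joins farnesyl units into squalene, was at 81.0 ± 1.51 CPM in shCtrl and 97.2 ± 3.44 CPM in shGDPD5 (log2 fold change 0.26, adjusted p = 0.000565). SQLE, the squalene epoxidase and a rate-limiting enzyme, was at 50.8 ± 1.52 and 59.8 ± 1.42 CPM (log2 fold change 0.23, adjusted p = 0.00221). Both rose by less than the early enzymes FDPS and ACAT2. HSD17B7, a reductase of the demethylation complex, rose from 9.26 ± 0.792 to 13.1 ± 0.345 CPM (log2 fold change 0.50, adjusted p = 0.000672), while its pseudogene HSD17B7P2, at 2.76 to 3.79 CPM, differed by -0.01 on the log2 scale (adjusted p = 0.983). DHCR7, the reductase of a closing step, rose from 35.8 ± 3.05 to 46.8 ± 3.56 CPM (log2 fold change 0.38, adjusted p = 0.000822).

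Of the late enzymes, 3 fell. CYP51A1, which removes the first methyl group of lanosterol, was at 164, 144 and 142 CPM in shCtrl and 131, 124 and 129.9 CPM in shGDPD5. The groups did not overlap, but shCtrl replicate 1 was well above the other control libraries (log2 fold change -0.23, SE 0.06, edgeR adjusted p = 0.00509). Of the exonic length of CYP51A1, 79.4% is shared with AC000120.2, an annotated gene on the same strand. Its identifier was not among the tested genes, which does not show that it was low. TM7SF2, a sterol reductase, was at 14.8, 17.3 and 18.3 CPM in shCtrl and 13.5, 14.1 and 14.3 CPM in shGDPD5 (log2 fold change -0.27, adjusted p = 0.0246). MSMO1, the methyl sterol oxidase, was at 60.9, 59.3 and 58.8 CPM in shCtrl and 53.9, 55.5 and 52.4 CPM in shGDPD5 (log2 fold change -0.15, adjusted p = 0.0297). For both genes the groups lay side by side without overlap. These calls were the weakest among the members: that of TM7SF2 was lost without shCtrl replicate 2 (adjusted p = 0.0752), shCtrl replicate 3 (0.101) or shGDPD5 replicate 1 (0.0761), and that of MSMO1 without shCtrl replicate 2 (0.0569), shGDPD5 replicate 1 (0.0897) or shGDPD5 replicate 3 (0.132). NSDHL, a dehydrogenase of the same complex as MSMO1 and HSD17B7, was at 11.1, 16.0 and 15.9 CPM in shCtrl and 18.0, 17.0 and 17.5 CPM in shGDPD5. Its shCtrl replicate 1 lay below all the others, and the interval of its log2 fold change ran from 0.02 to 0.55 (adjusted p = 0.0569). Without that library its log2 fold change was 0.13 (adjusted p = 0.148), whereas it passed the threshold without shCtrl replicate 2 (0.37, adjusted p = 0.0386) or shCtrl replicate 3 (0.37, adjusted p = 0.0332). SC5D, a desaturase near the end of the pathway, had a log2 fold change of -0.06 with an interval from -0.17 to 0.05 (adjusted p = 0.31). A p that misses the threshold does not show that HMGCS1, PMVK, NSDHL or SC5D were at the same level in both groups.

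**Figure D2:**
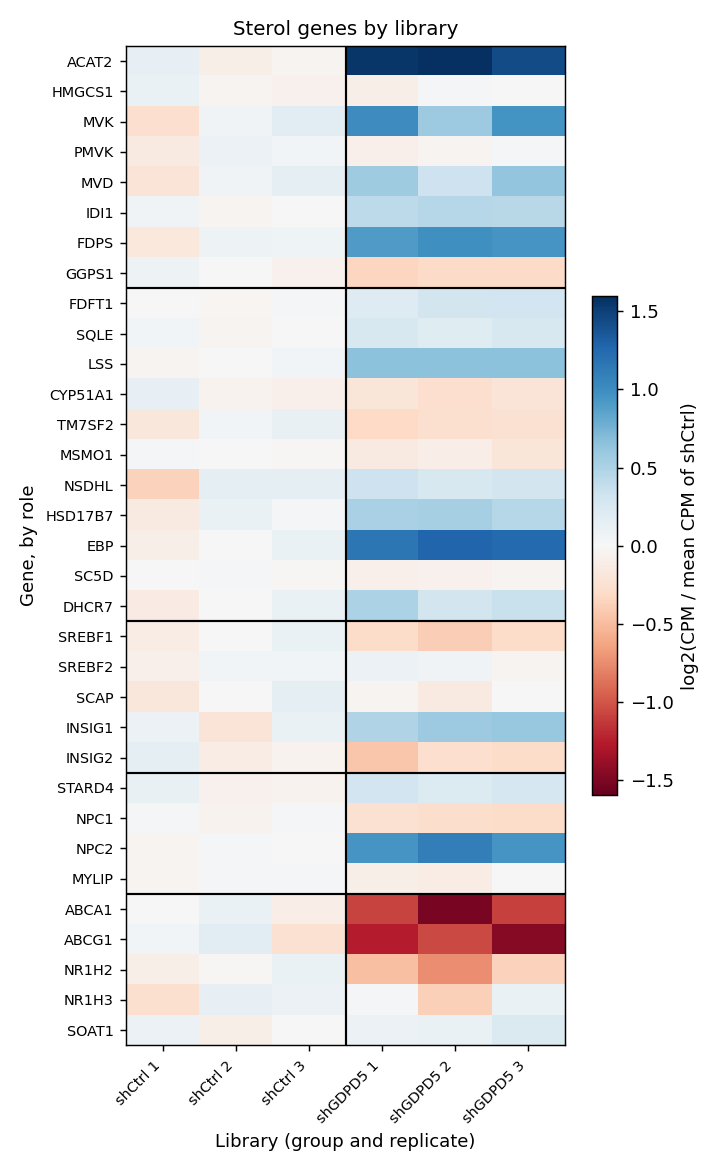
Log2 level of each tested member (rows, by role) in each of the 6 libraries (columns) relative to the mean of its 3 shCtrl libraries, with blue for higher and red for lower. The median over the early enzymes was between 0.39 and 0.53 in the shGDPD5 libraries, and the median over the export and storage genes between -0.74 and -0.37.

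Within each library, the median log2 difference from the shCtrl mean was 0.50, 0.39 and 0.53 over the early enzymes and 0.26, 0.25 and 0.29 over the late enzymes in the shGDPD5 libraries. The same medians in the shCtrl libraries lay between -0.04 and 0.03 for both roles. For the SREBP system the shGDPD5 libraries gave -0.04, -0.15 and -0.04, inside or close to the range of -0.08 to 0.10 of the shCtrl libraries.

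None of the 3 genes that encode the SREBP factors and their escort was called higher, against 29.7% of all tested genes. SREBF2, which encodes the factor that drives synthesis and uptake, was at 110.1, 119 and 119.8 CPM in shCtrl and 124, 122 and 113 CPM in shGDPD5. The groups overlapped, and the interval of its log2 fold change ran from -0.08 to 0.16 (edgeR adjusted p = 0.559). SCAP, the sterol-sensing escort, had a log2 fold change of -0.06 with an interval from -0.24 to 0.12 (adjusted p = 0.541). SREBF1, whose products act more on fatty acid synthesis, fell from 104 ± 8.22 to 83.4 ± 3.09 CPM (log2 fold change -0.32, adjusted p = 0.000608). Its exons overlap those of RAI1 on the opposite strand over 6.9% of their length, and RAI1 had a log2 fold change of -0.41.

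The INSIG genes, whose products retain SCAP in the endoplasmic reticulum, went in opposite directions. INSIG1, itself a target of SREBP2, was at 20.1, 16.3 and 20.2 CPM in shCtrl and 26.4, 28.1 and 28.5 CPM in shGDPD5. Every shGDPD5 library was higher (log2 fold change 0.56, SE 0.09, edgeR adjusted p = 0.000134). INSIG2, which is not under the same sterol control, was at 41.0, 33.7 and 35.2 CPM in shCtrl and 26.9, 30.5 and 29.9 CPM in shGDPD5. Here every shGDPD5 library was lower (log2 fold change -0.33, SE 0.08, adjusted p = 0.00375). Per exonic length, INSIG1 stood to INSIG2 as 0.530, 0.521 and 0.621 in shCtrl and as 1.06, 0.999 and 1.03 in shGDPD5. By this measure INSIG2 was the more abundant in every control library, and the levels of both genes were about equal in the knockdown libraries. Since INSIG1 rose and INSIG2 fell without overlap, their ratio could not overlap either. Exonic length here counts all annotated exons of a gene, so a comparison between genes also depends on the annotation.

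The INSIG promoters are shown because these paralogous genes moved in opposite directions and differ in the searched motifs. The RefSeq bases on GRCh38.p14 before the annotated exons, 5′ to 3′, are at chr7:155297628-155297775 for INSIG1 and chr2:118088221-118088451 for INSIG2, both on the plus strand. Capitals mark the match to CCAAT, read as ATTGG. In the stretch of INSIG2 none of the searched motifs was found.
INSIG1: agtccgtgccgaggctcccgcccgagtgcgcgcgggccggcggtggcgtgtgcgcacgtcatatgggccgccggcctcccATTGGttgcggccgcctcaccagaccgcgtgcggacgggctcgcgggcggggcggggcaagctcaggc
INSIG2: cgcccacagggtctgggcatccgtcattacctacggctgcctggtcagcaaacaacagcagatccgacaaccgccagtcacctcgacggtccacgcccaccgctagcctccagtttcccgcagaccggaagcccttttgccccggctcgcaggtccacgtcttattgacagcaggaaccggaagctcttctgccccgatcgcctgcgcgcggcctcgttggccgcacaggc

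Of the genes of uptake and transport, NPC2 showed the largest change. NPC2, the soluble lysosomal protein that binds cholesterol, lies on chromosome 14 from 74476192 to 74494177 on the minus strand and was at 28.0, 29.3 and 28.9 CPM in shCtrl and 54.9, 61.6 and 55.4 CPM in shGDPD5. The groups lay far apart compared with the spread within them, and its log2 fold change was 0.996 (SE 0.06, edgeR adjusted p = 5.09e-08). This lies just under 1, and it was 1.01 or 1.02 without shCtrl replicate 2, shGDPD5 replicate 1 or shGDPD5 replicate 3. NPC1, the membrane protein that receives cholesterol from NPC2, was at 82.5, 77.9 and 83.0 CPM in shCtrl and 68.0, 66.9 and 65.9 CPM in shGDPD5. All shGDPD5 libraries were lower (log2 fold change -0.28, SE 0.05, adjusted p = 0.000436). Per exonic length, NPC2 stood to NPC1 as 1.25, 1.38 and 1.28 in shCtrl and as 2.97, 3.38 and 3.09 in shGDPD5. Since NPC2 rose and NPC1 fell without overlap, their ratio could not overlap either.

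STARD4, a cytosolic sterol carrier, rose from 33.7 ± 2.47 to 40.6 ± 1.34 CPM (log2 fold change 0.27, edgeR adjusted p = 0.00395). MYLIP, the ubiquitin ligase that lowers lipoprotein receptors and is a target of LXR, was at 16.6 ± 0.536 and 15.9 ± 0.789 CPM. The interval of its log2 fold change ran from -0.24 to 0.10 (adjusted p = 0.475).

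The exporters fell most of all members. ABCA1, which loads cholesterol onto lipid-poor apolipoprotein, lies on chromosome 9 from 104781002 to 104928237 on the minus strand and was at 6.41, 6.94 and 5.94 CPM in shCtrl and 3.04, 2.24 and 2.99 CPM in shGDPD5. The highest shGDPD5 library was well below the lowest shCtrl library, and the mean was 42.9% of the control mean (log2 fold change -1.22, SE 0.15, edgeR adjusted p = 2.14e-05). ABCG1, which exports cholesterol to mature lipoprotein particles, lies on chromosome 21 from 42199689 to 42297244 on the plus strand and was at 9.38, 10.3 and 7.67 CPM in shCtrl and 3.80, 4.38 and 3.33 CPM in shGDPD5. The groups did not overlap, and the mean was 42.0% of the control mean (log2 fold change -1.25, SE 0.15, adjusted p = 1.45e-05). These values rest on few reads, 110, 123 and 103 counts in shCtrl and 52, 42 and 53 in shGDPD5 for ABCA1.

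The promoter of ABCA1 is shown as that of the exporter with a window, since its gene fell while those above rose or, for INSIG2, fell less. The RefSeq bases on GRCh38.p14 before the annotated exons, 5′ to 3′ on the minus strand, are at chr9:104928238-104928405, and capitals mark the E-box CACGTG.
ABCA1: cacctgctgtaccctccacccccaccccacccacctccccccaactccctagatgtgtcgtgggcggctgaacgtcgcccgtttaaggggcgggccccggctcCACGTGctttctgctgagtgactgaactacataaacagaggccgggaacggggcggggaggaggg

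NR1H2, which encodes the widely expressed LXR receptor, was at 29.9, 31.8 and 34.8 CPM in shCtrl and 23.0, 19.2 and 24.9 CPM in shGDPD5. It fell in every shGDPD5 library against every shCtrl library (log2 fold change -0.52, SE 0.09, edgeR adjusted p = 0.000367). NR1H3, the other LXR gene, was at 7.28, 9.54 and 9.28 CPM in shCtrl and 8.88, 6.67 and 9.42 CPM in shGDPD5. The groups overlapped, and the interval of its log2 fold change was wide, from -0.39 to 0.25 (adjusted p = 0.714). SOAT1, which esterifies cholesterol for storage in lipid droplets, was at 54.9, 48.5 and 51.0 CPM in shCtrl and 54.8, 55.3 and 60.3 CPM in shGDPD5. Its log2 fold change was 0.14 with an interval from 0.01 to 0.28, and it did not pass after adjustment (adjusted p = 0.0693), although it did without shCtrl replicate 1 (adjusted p = 0.0113). Per exonic length, SOAT1 stood to ABCA1 as 13.9, 11.3 and 13.9 in shCtrl and as 29.2, 40.0 and 32.7 in shGDPD5. Since ABCA1 fell by more than SOAT1 varied, this ratio could not overlap either. Beside the fall of the exporters stand the lower summed levels of the epithelial and immune markers, in which CD68, a macrophage marker, was itself called lower.

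**Figure D3:**
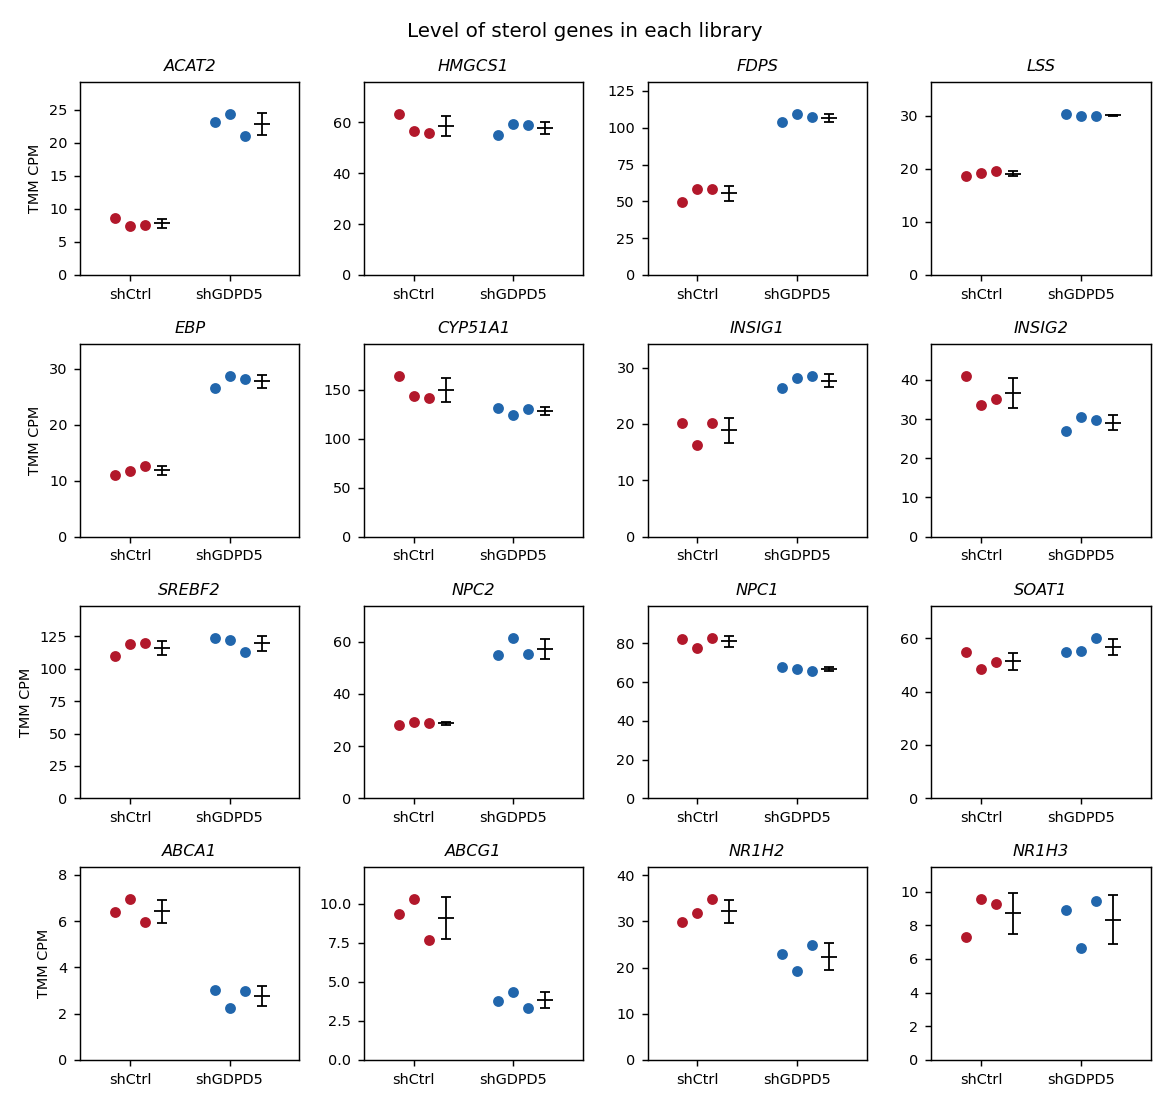
Level in CPM (y axis, linear and from 0) of 16 members, 1 panel each, with 1 point for each of the 3 shCtrl (red) and 3 shGDPD5 (blue) libraries and the mean with SD in black beside them. ABCA1 lies between 5.94 and 6.94 CPM in shCtrl and between 2.24 and 3.04 CPM in shGDPD5, whereas ACAT2 lies between 7.34 and 8.62 CPM and between 21.1 and 24.3 CPM.

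Levels between genes were compared as CPM per kilobase of exonic length, taken over all annotated exons of each gene. This length can exceed that of the transcripts expressed, so the order also depends on the annotation. In shCtrl the most abundant member was CYP51A1 at 41.9 ± 3.38 CPM per kilobase, followed by MSMO1 at 20.6 ± 0.389. In shGDPD5 CYP51A1 was still the highest at 35.8 ± 1.01, with FDPS next at 28.7 ± 0.748 and NPC2 at 20.8 ± 1.35. FDFT1 at 15.6 ± 0.290, SREBF2 at 15.4 ± 0.729, FDPS at 14.9 ± 1.40 and GGPS1 at 14.0 ± 0.693 came next in shCtrl, and neighbours in this order differed by no more than their spread. Of the tested members, ABCA1 was the lowest in both groups, at 0.566 ± 0.0442 in shCtrl and 0.243 ± 0.0394 in shGDPD5.

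The pathway around the members was described by 6 lists of other sterol genes, 92 genes in all, of which 84 were tested. Of these, 28 were higher, 31 were lower and 25 were not called, with a median log2 fold change of -0.03. The shares higher (33.3%) and lower (36.9%) were close to the 29.7% and 30.1% of all tested genes, against which the counts of the lists that follow are also to be read. The 15 genes of the isoprenoid branches had 9 higher and 4 lower and a median of 0.24. Among them ICMT, which methylates prenylated proteins, rose (log2 fold change 0.42, edgeR adjusted p = 1.04e-05), as did RABGGTB, a subunit of the enzyme that prenylates Rab proteins (0.33, adjusted p = 9.04e-05). NUS1, a subunit of the enzyme that makes dolichol precursors, fell (-0.43, adjusted p = 2.66e-05).

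The 12 genes that process SREBP or degrade sterol enzymes had 3 higher and 8 lower, with a median log2 fold change of -0.16. MBTPS2, the protease that makes the last cut in SREBP, was at 47.1, 44.9 and 43.9 CPM in shCtrl and 32.2, 29.2 and 31.9 CPM in shGDPD5. The groups did not overlap (log2 fold change -0.54, SE 0.06, edgeR adjusted p = 9.47e-06). PGRMC1, a haem-binding partner of sterol enzymes (-0.43, adjusted p = 1.34e-05), and ERLIN2, which acts in sterol-driven protein degradation (-0.40, adjusted p = 5.64e-05), also fell. MBTPS1, the protease of the first cut, differed by -0.11 on the log2 scale (adjusted p = 0.0323), a call that was lost when any library other than shCtrl replicate 1 was left out (adjusted p of 0.0577 to 0.116).

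The 23 genes of lipoprotein and sterol transport had 5 higher and 8 lower, with a median log2 fold change of -0.01. TMEM97, a membrane protein that binds NPC1, rose from 23.4 ± 1.34 to 47.4 ± 2.92 CPM (log2 fold change 1.02, edgeR adjusted p = 8.91e-08). GRAMD1B, which carries cholesterol from the plasma membrane to the endoplasmic reticulum, fell from 33.4 ± 0.681 to 19.4 ± 0.620 CPM (-0.78, adjusted p = 4.05e-07). OSBPL8, a lipid transfer protein of membrane contacts, fell as well (-0.54, adjusted p = 5.74e-06).

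Other SREBP targets, mostly of fatty acid synthesis, had 7 of 16 higher and 5 lower, with a median log2 fold change of 0.14. ACLY, which makes cytosolic acetyl-CoA from citrate, was at 169.6, 179 and 182 CPM in shCtrl and 276, 275 and 273 CPM in shGDPD5, whereas ACSS2, which makes it from acetate, was at 62.0, 65.9 and 69.5 CPM in shCtrl and 29.4, 24.0 and 27.3 CPM in shGDPD5. These sources of the building block of cholesterol went in opposite directions without overlap (log2 fold change 0.63 and -1.29, edgeR adjusted p = 1.11e-07 and 2.42e-08). LPIN1, a phosphatidate phosphatase, rose (0.68, adjusted p = 2.03e-05), as did FASN, the fatty acid synthase (0.51, adjusted p = 0.000501), while the desaturase gene SCD fell (-0.21, adjusted p = 0.000734). The study reports, by Western blot, less FASN protein after GDPD5 knockdown in radioresistant cells, and states no irradiation for that blot. The values here are of RNA, from cells that the study describes as irradiated before collection.

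Of 13 LXR targets and partners 11 were tested, with 2 higher, 6 lower and a median log2 fold change of -0.27. LPCAT3, which remodels phospholipids, rose (0.49, edgeR adjusted p = 1.85e-05). TNFAIP2 fell (-0.47, adjusted p = 5.09e-05). ABCA1 and ABCG1, targets of the same receptors, were lower, as were 6 of the 8 called genes of this list, whereas LPCAT3 was higher. Of 13 genes of sterol esters and oxysterols 7 were tested, with 2 higher and 0 lower and a median of -0.17. These were NCEH1, a cholesteryl ester hydrolase (0.50, adjusted p = 9.62e-05), and LCAT, which esterifies plasma cholesterol (0.67, adjusted p = 0.00838).

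**Figure D4:**
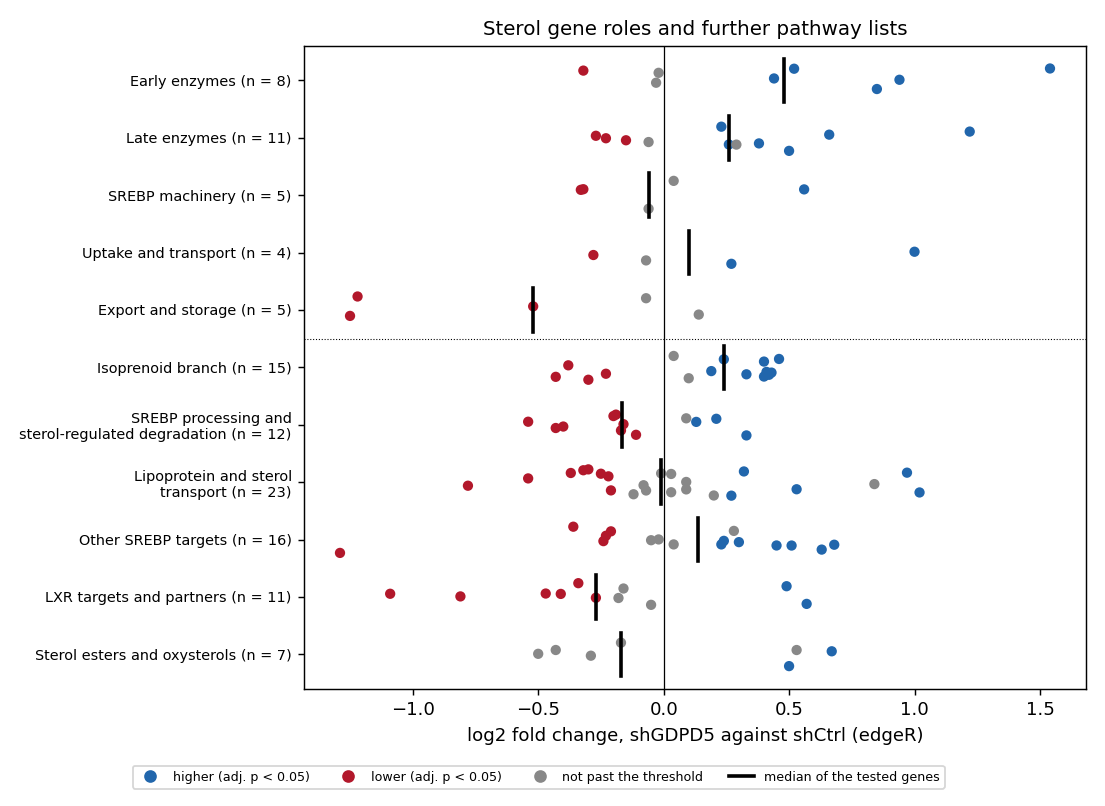
Log2 fold change of shGDPD5 over shCtrl (x axis) for every tested gene of the 5 member roles and the 6 lists of other sterol genes (y axis), 1 point per gene coloured by its call, with a black bar at the median of each list. The medians run from -0.52 for export and storage to 0.48 for the early enzymes, beside 0.01 over all tested genes.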

How the data were processed

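RNA-seq was analysed for 6 HCT116 libraries, 3 shCtrl and 3 shGDPD5, grouped by the sample labels. The values that the authors deposited are estimated counts, which need not be whole. Not given in the sources used here were the genome build, the strand setting, the aligner and the counter. Rounding to whole numbers moved no value by more than 0.5, and no row without a gene identifier entered the totals.

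Genes were filtered with filterByExpr at a minimum count of 10, normalized by TMM and tested with the quasi-likelihood method of edgeR 4.0.16 (R 4.3.3), with Benjamini-Hochberg adjustment over all 16755 tested genes and group as the only term. A gene was called at an adjusted p under 0.05. The study names a log2 ratio of 1 or more in size and, with p under 0.05, a fold over 1.5 or under 0.5. Here the log2 threshold at an unadjusted p under 0.05 served as a second rule and the other fold as its alternative. CPM were computed on the TMM-scaled library size, errors are SD over 3 libraries, and intervals are 95% intervals of the fit. The common biological coefficient of variation was 0.0555. Library totals of 16715447 to 18510670 counts leave genes of a few counts imprecise.

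The 34 members, the other lists, the markers and the motifs were chosen with earlier results of these data known. All members were named, together with the 3 genes of smallest adjusted p under 0.05 in each other list, FASN, SCD, ACLY and GDPD5. Of the genes this rule gives, 1 is not reported here. HSD17B7P2, CD68, MBTPS1 and the overlapping genes were named in addition, after their values were seen. Positions and exonic lengths are from GENCODE release 29 on GRCh38, matched by Ensembl identifier, and promoter bases from RefSeq. Alternatives were RLE and upper quartile factors, the lack of a filter, a replicate block, a minimum of 10 counts in all libraries, leaving out each library, DESeq2 1.42.0, and limma 3.58.1 with voom or as limma-trend on log2(CPM + 1). The code was tested on simulated data. No explanation of any difference was tested.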

Additional observations from a re-analysis of the deposited data

How the results depend on the processing

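Of the 24 members called, 22 were called under all 14 alternatives of the fit, and no called member changed sign. Of those not called, HMGCS1, PMVK, SREBF2, SCAP and NR1H3 changed sign under some alternatives. Over these alternatives the number of members called ranged from 22 to 26. TM7SF2 and MSMO1 lost their calls under DESeq2 (adjusted p = 0.06 and 0.0693). NSDHL passed with upper quartile factors (0.0452), without a filter (0.0203), with 10 counts in every library (0.0493), under limma-voom (0.0489), and without shCtrl replicate 2 (0.0386) or shCtrl replicate 3 (0.0332), and SOAT1 passed with upper quartile factors (0.0456) and without shCtrl replicate 1 (0.0113). With the study's fold over 1.5 or under 0.5 in place of its log2 threshold of 1, 8 members passed, 6 of them higher, instead of 4 and 2. Under limma-trend on log2(CPM + 1), where the pseudocount shrinks low genes by construction, 1 member passed the log2 threshold of 1 downwards. The median log2 fold change of the SREBP system ranged from -0.15 to 0.02 when 1 library was left out, at the ends without shCtrl replicate 1 and without shCtrl replicate 3. The cause was not tested.

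Libraries with the same replicate number did not deviate together (correlations of -0.07, -0.0517 and -0.041), so the numbers do not pair them, and no library correlated best with its own number. With the replicate block 23 members were called, 14 higher and 9 lower, and MSMO1 was the call lost (adjusted p = 0.0561). The filter on low counts kept NPC1L1, at 2 to 7 counts per library, out of the test.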
